A study of Mus musculus with 4 samples.

Results

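Small heat shock proteins and the chaperones that work with them in muscle were followed through hearts that lack both miR-1 genes. The set comprised 10 genes, chosen by gene name: Hspb1, Hspb2, Hspb3, Hspb6, Hspb7, Hspb8, Cryab, Bag3, Hspd1 and Hspa4. Rows for all 10 stood in both deposited tables of 22552 rows, and all 10 passed the low-value filter (FPKM 5 or more in 1 of a stage's 2 libraries). FPKM counts fragments per kilobase of transcript, scaled to the size of the library, so levels can be compared between genes of a library.

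The 4 libraries were poly-A RNA of whole mouse heart, strain Sv129, from postnatal day 2.5 (P2.5) and embryonic day 15.5 (E15.5). At each stage 1 library was labelled dKO, a knockout of both miR-1 genes (miR-1-1 along with miR-1-2), and 1 was labelled dHET, the control, which the series text calls a littermate control at P2.5. The labels do not say how many hearts went into a library or how the deletions were made. The control column of the E15.5 table is headed WT, although its sample carries the label dHET. With 1 library per group no difference below has a replicate check, and each compares 2 libraries, not 2 genotypes.

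The P2.5 libraries differed in sex: Xist had 0.101 FPKM (dHET) and 50.7 FPKM (dKO), Ddx3y on the Y chromosome had 11.7 and 0, so sex and genotype cannot be told apart at P2.5. At E15.5 Ddx3y was at 15.3 and 14.8 FPKM. Scaling totals recovered from low values ran from 44600000 to 104000000 fragments. They put about 386 to 66100 fragments behind each value of the 10 genes, a counting error of 5.09% to 0.389% that covers counting alone.

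Small heat shock proteins share an alpha-crystallin domain and hold unfolding proteins without using ATP until HSP70 machines refold them or pass them on for degradation. Heart and skeletal muscle carry an unusually rich set, because filaments and Z-discs are strained at each beat. Bag3 joins small heat shock proteins to HSP70 at the Z-disc and directs damaged filamin to autophagy, while Hspd1 (HSP60) folds proteins inside mitochondria. Heart muscle makes much miR-1, which acts on messages whose 3′ untranslated region pairs with its seed.

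Of the 10 genes, Hspd1 alone carried the word ACATTCC, the match to the miR-1 seed, in its longest annotated 3′ untranslated region (GENCODE M1), and Hspb7 alone carried the related word CATTCCA. These words occur in 9.13% and 10.8% of the 19915 genes searched. Both sites are shown because they are the only such words among the members, with the word in capitals and the strand that reads as the message.
Hspd1: aagacatttgtACATTCCtgatgctgggt
Hspb7: cacttccccccCATTCCAcctctcctgag
The Hspd1 stretch is chr1:55134884-55134912 (mm9, minus strand) in exon 12, the last, and the word starts at position 231 of a region of 453 bases. The Hspb7 stretch is chr4:140980912-140980940 (mm9, plus strand) in exon 3, the last. A word is a description of the sequence and does not show that miR-1 binds there. The 8-base word ACATTCCA was in 0 of the 10 and in 3.46% of all genes. Hspa4, whose region of 1798 bases is the longest of the set, held neither 7-base word.

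A second sequence concerns how Hspd1 is placed in the genome. Hspd1 and Hspe1, which encodes the HSP10 lid of the same mitochondrial chaperonin, are transcribed away from each other from start sites 215 bases apart. The stretch between these starts holds an 18-base heat shock element in capitals, the kind of repeat that heat shock factors recognise. It is printed as chr1:55087933-55088147 on the plus strand of GRCm38.p6 (RefSeq), and the same letters lie at chr1:55144777-55144991 in mm9, the build of the files.
Hspd1 to Hspe1: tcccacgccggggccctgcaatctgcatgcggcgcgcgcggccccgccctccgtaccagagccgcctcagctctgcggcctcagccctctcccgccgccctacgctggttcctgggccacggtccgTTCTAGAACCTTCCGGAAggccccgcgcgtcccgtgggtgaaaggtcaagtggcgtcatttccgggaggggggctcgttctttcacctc
The element begins 126 bases from the Hspd1 start and ends 71 bases from the Hspe1 start. The motif searched was GAANNTTCNNGAA or its reverse complement TTCNNGAANNTTC, which cover both strands and overlap here. Of 32851 RefSeq promoters of 300 bases (250 before to 50 after a start), 0.603% held it. Promoters were at hand for 8 of the 10 members, all but Hspb2 and Cryab, and among these 8 only that of Hspd1 held the motif.

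None of the 10 genes differed by 1.5-fold between dKO and dHET, at either stage. The threshold was read on log2((FPKM dKO + 1)/(FPKM dHET + 1)), the scale of all changes here. At P2.5, 4.73% of the 8197 counted genes passed it (3.59% higher, 1.15% lower), and at E15.5 1.06% of 8308 (0.494% higher, 0.566% lower), so a count of 0 of 10 is near what the background gives and is no result about these genes. The authors' deposited tables call 0 of the 10 significant at P2.5 and 0 at E15.5, against 55 and 135 of all genes. Median changes of the 10 were 0.17 at P2.5, where that of all counted genes was 0.083, and -0.024 at E15.5, where that of all was -0.012.

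**Figure D1:**
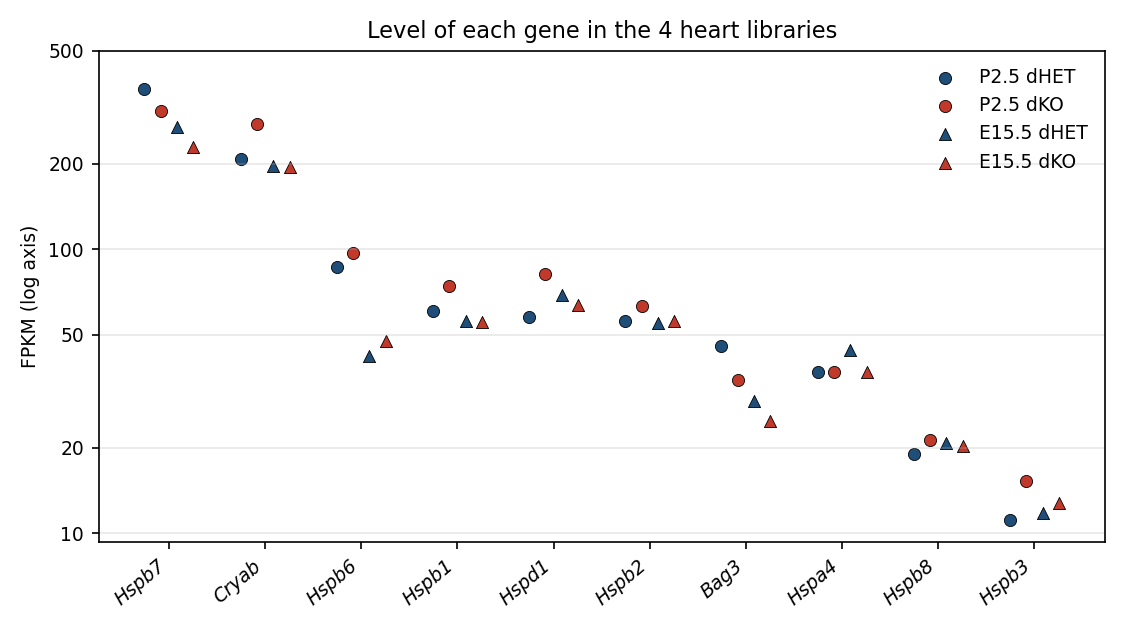
FPKM of the 10 genes (log axis) in the 4 libraries; circles are P2.5, triangles E15.5, blue dHET and red dKO, and each point is 1 library. Hspb7 and Cryab lie between 194 and 366 FPKM in the 4 libraries, and Hspb3 lies between 11.1 and 15.2. None of the 10 genes differs by 1.5-fold between the libraries of a stage. The largest such ratio is that of Hspd1 at P2.5 (57.8 FPKM in dHET, 81.6 in dKO).

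Hspb7 and Cryab led the set. Hspb7, a heart-enriched member that binds filamin C, was the most abundant of the 10 in each library, at 366 FPKM in P2.5 dHET, 306 in P2.5 dKO, 269 in E15.5 dHET and 230 in E15.5 dKO. It lay above 99.1% to 99.5% of genes with an FPKM over 1 in each library. Its changes were -0.26 at P2.5 and -0.23 at E15.5, so the dKO library was the lower at both stages. In whole hearts fewer cells of a type and less RNA per cell cannot be told apart, here and below. The standard errors implied by the authors' tables (their log2 change over their test statistic) were 0.39 and 0.20 on the log2 scale. The change was within 1 such error at P2.5 and 1.12 errors from 0 at E15.5. The gene lies at chr4:140976694-140981225 (mm9).

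Cryab (alpha B-crystallin), which protects desmin filaments and is mutated in desmin-related myopathy, ranked next in all 4 libraries. It had 208 FPKM in P2.5 dHET, 276 in P2.5 dKO, 197 in E15.5 dHET and 194 in E15.5 dKO. The P2.5 dKO library stood above the other 3, which lay close together. Changes were 0.41 at P2.5 (implied standard error 0.30) and -0.018 at E15.5 (0.16). The 95% interval from that error ran from 0.887-fold to 1.99-fold at P2.5 and from 0.793-fold to 1.23-fold at E15.5.

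The balance between the 2 leading genes differed between the P2.5 libraries. Cryab was at 0.569 of the Hspb7 level in P2.5 dHET and at 0.902 in P2.5 dKO, against 0.733 and 0.847 at E15.5. Such a ratio within a library does not depend on how the libraries were scaled. In both pairs of libraries it was the higher in dKO, and the difference was not tested.

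Hspb2, also called MKBP, binds the myotonic dystrophy kinase and lies head to head with Cryab on chromosome 9, 403 bases away in the files' coordinates. It had 55.8 FPKM in P2.5 dHET, 63.2 in P2.5 dKO, 54.8 in E15.5 dHET and 56.0 in E15.5 dKO, and its changes were 0.18 and 0.031. Cryab exceeded Hspb2 by 3.72 times in P2.5 dHET, 4.37 times in P2.5 dKO, 3.59 times in E15.5 dHET and 3.47 times in E15.5 dKO. The ratio was highest in P2.5 dKO.

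Hspb3, which assembles with Hspb2 in muscle, was the least abundant member in each library. It had 11.1 FPKM in P2.5 dHET, 15.2 in P2.5 dKO, 11.8 in E15.5 dHET and 12.8 in E15.5 dKO. Its changes, 0.43 and 0.11, were positive at both stages, but its implied standard errors of 0.37 and 0.26 were among the widest of the set. Hspb2 stood at 5.04 times the Hspb3 level in P2.5 dHET and at 4.15 times in P2.5 dKO, and at 4.64 and 4.37 times at E15.5.

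Hspb6 (HSP20), a target of protein kinase A in heart muscle, had 86.4 FPKM in P2.5 dHET, 96.8 in P2.5 dKO, 42.0 in E15.5 dHET and 47.6 in E15.5 dKO. The genotypes differed by 0.16 and 0.18, and the dKO library was the higher at both stages as deposited. Rescaling each library to the same sum turned the P2.5 value to -0.0085. The stages stood further apart than the genotypes for this gene: both P2.5 libraries were at 2.03 to 2.06 times the E15.5 library of their genotype. The 2 tables were normalised separately and read differently, so this is a side by side value. Within a library, Hspb6 was at 1.43 and 1.30 times Hspb1 at P2.5 (dHET, dKO) and at 0.754 and 0.860 times at E15.5.

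Hspb1 (HSP25 in mouse), which guards actin filaments and is made in many cell types, had 60.6 FPKM in P2.5 dHET, 74.5 in P2.5 dKO, 55.7 in E15.5 dHET and 55.3 in E15.5 dKO. Changes were 0.29 and -0.0090. The value is uncertain, since 86.0% of its longest transcript has a copy at 1 other place in the genome (at least 90% identity over 100 bases or more).

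**Figure D2:**
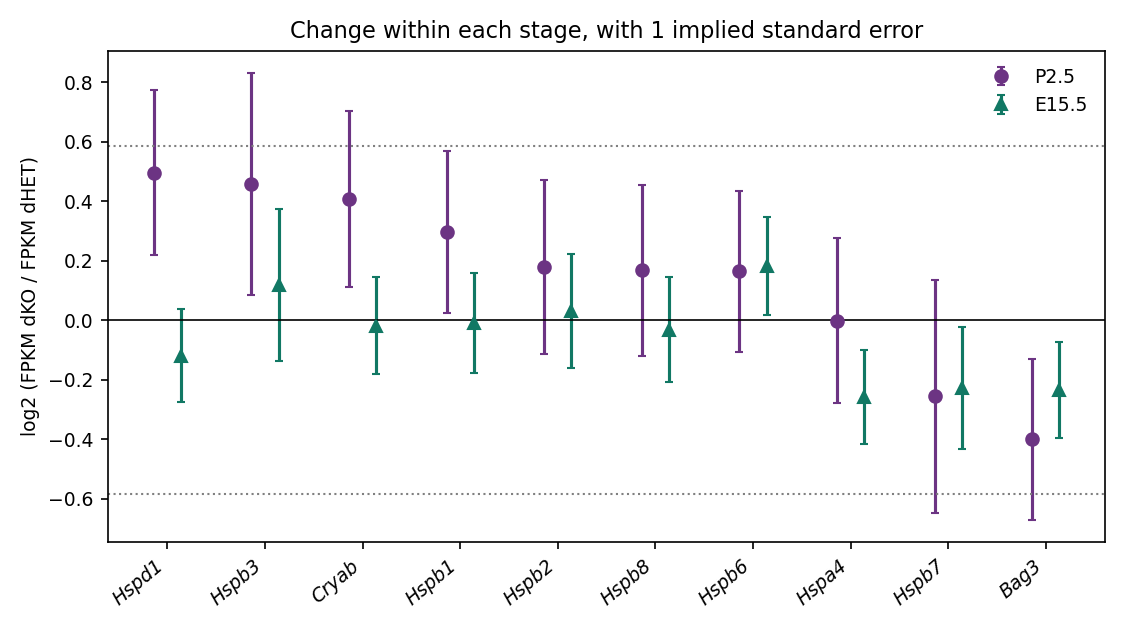
Deposited log2 ratio of dKO over dHET for each gene, without a pseudocount, with bars of 1 implied standard error; circles are P2.5, triangles E15.5, and dotted lines mark 1.5-fold. All 20 points lie between the dotted lines. Bag3, Hspb7 and Hspa4 are below 0 at both stages, Hspa4 at only -0.0011 at P2.5. Hspd1 has the largest distance between its stages.

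In the Bag3 complex, Bag3 itself had the lower dKO level at both stages while its partner Hspb8 stayed nearly even. Bag3 (chr7:135667097-135690493, mm9) had 45.7 FPKM in P2.5 dHET, 34.6 in P2.5 dKO, 29.2 in E15.5 dHET and 24.9 in E15.5 dKO. The dKO library was the lower at both stages, with changes of -0.39 (implied standard error 0.27) and -0.22 (0.16), which are 1.48 and 1.44 of its errors. The intervals ran from 0.525-fold to 1.10-fold at P2.5 and from 0.683-fold to 1.06-fold at E15.5, and both include no difference. Of all counted genes, 15.9% at P2.5 and 12.9% at E15.5 had a change of at least that size in either direction.

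Hspb8, the small heat shock protein that Bag3 binds, had 18.9 FPKM in P2.5 dHET, 21.3 in P2.5 dKO, 20.7 in E15.5 dHET and 20.3 in E15.5 dKO. These 4 values were among the most even of the set, with changes of 0.16 and -0.030. The ratio of Bag3 to Hspb8 was 2.41 in P2.5 dHET, 1.63 in P2.5 dKO, 1.41 in E15.5 dHET and 1.23 in E15.5 dKO. Bag3 was more abundant than its partner in each library, and by the most in P2.5 dHET.

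The rest of this route was read from a list. Of the 10 genes on a list of chaperone-assisted autophagy, 0 passed 1.5-fold at P2.5 and 0 at E15.5, with medians of 0.16 and -0.096. Of all counted genes 4.73% and 1.06% passed, so a count of 0 of 10 is near the background. Stub1, the ubiquitin ligase CHIP, had 53.2 FPKM in P2.5 dHET and 63.0 in P2.5 dKO, and 44.8 and 40.6 at E15.5. Hspa8, the constitutive HSP70 that Bag3 recruits, had 31.5 and 37.1 FPKM at P2.5, with 30.7 and 24.4 at E15.5, a change of -0.32. In the wider BAG family, Bag3 was the lowest of 7 counted genes at both stages, and the highest was Sil1, a nucleotide exchange factor of the endoplasmic reticulum, at 0.49 and 0.26.

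**Figure D3:**
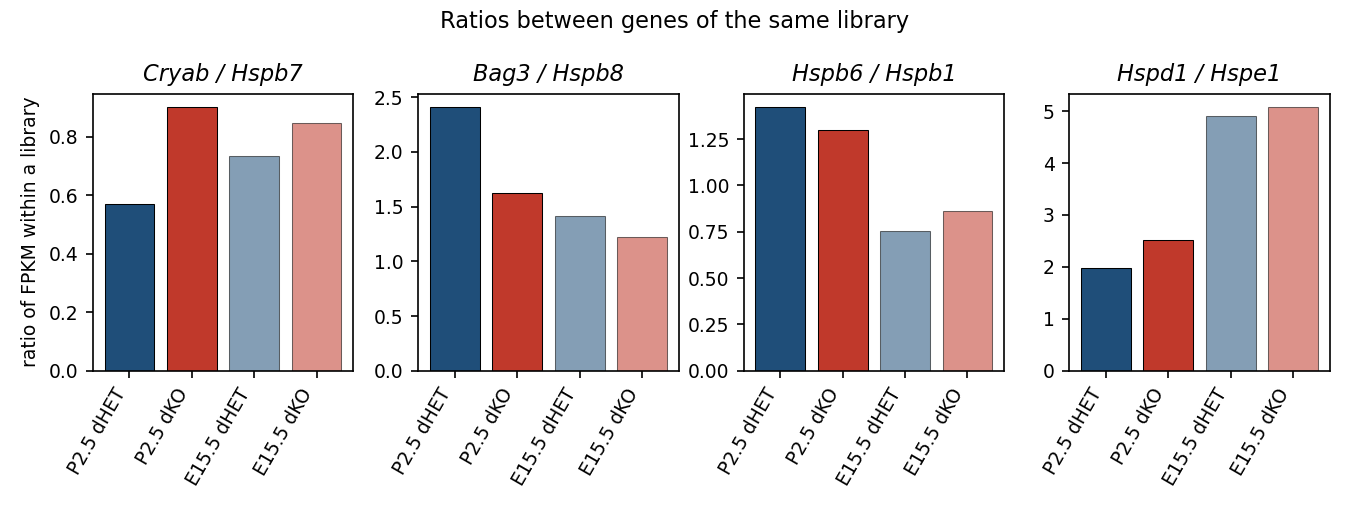
Ratio of the FPKM of 2 genes in the same library for 4 pairs, with the axes from 0; each bar is 1 library. Of the 4 pairs, Cryab over Hspb7 and Bag3 over Hspb8 differ most between the P2.5 libraries. Hspb6 over Hspb1 and Hspd1 over Hspe1 differ most between the stages, which were read differently. Bag3 over Hspb8 also differs between the stages, at 2.41 in P2.5 dHET and 1.41 in E15.5 dHET.

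Hspd1 (chr1:55134678-55144776, mm9), the carrier of the seed match shown above, had 57.8 FPKM in P2.5 dHET, 81.6 in P2.5 dKO, 68.9 in E15.5 dHET and 63.5 in E15.5 dKO. At P2.5 its change of 0.49 was the largest of the 10 as deposited, with an implied standard error of 0.28 and an interval from 0.968-fold to 2.06-fold. Of all counted genes, 8.63% changed by at least as much. At E15.5 the change was -0.12 (0.16), with an interval from 0.744-fold to 1.14-fold, which overlaps the P2.5 interval. After rescaling to the same sum, or centring on the median, the P2.5 change of Bag3 (-0.57 and -0.47) was larger in size than that of Hspd1 (0.32 and 0.41). Copies at 10 other places cover 92.3% of its transcript, and its values are uncertain for that reason.

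Hspe1, across the shared stretch, had 29.2 FPKM in P2.5 dHET, 32.3 in P2.5 dKO, 14.1 in E15.5 dHET and 12.5 in E15.5 dKO. Its changes were 0.14 and -0.16, so as deposited both genes had a positive value at P2.5 and a negative one at E15.5. Rescaling each library to the same sum turned the P2.5 value of Hspe1 to -0.029, while that of Hspd1 stayed positive at 0.32. Hspe1 was closer to Hspd1 in the P2.5 libraries. Hspd1 was at 1.98 and 2.53 times the Hspe1 level at P2.5 (dHET, dKO) and at 4.91 and 5.08 times at E15.5. The stages were read differently, from 1 end at P2.5 and from both ends at E15.5, so these are side by side values. How far the way of reading moved this ratio was not tested. Copies elsewhere cover 69.2% of the Hspe1 transcript. Hspe1 holds the word CATTCCA as well, at position 34 of its 3′ untranslated region.

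Hspa4, an HSP110 protein that recharges HSP70 with ATP, had 36.9 FPKM in both P2.5 libraries, with a change of -0.0010. At E15.5 dHET had 44.0 FPKM and dKO 36.8, a change of -0.25 with an implied standard error of 0.16. That was the most negative E15.5 value of the 10 and, at 1.62 errors, the one farthest from 0 for its error. Of all counted genes 9.66% changed by at least as much.

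As deposited, Hspb2, Hspb3 and Hspb6 were the higher in dKO at both stages, Hspb7, Bag3 and Hspa4 the lower, and Hspb1, Hspb8, Cryab and Hspd1 had opposite signs. Scaling moved part of this. Rescaling each library to the same sum took the all-gene median at P2.5 from 0.083 to -0.082, took Hspb6 out of the first group and put Hspb8 in the second. Centring on the median moved Hspb1 into the first group. Hspb2 and Hspb3 stayed higher at both stages and Hspb7, Bag3 and Hspa4 lower under these 3 scalings. Some of these signs rest on values near 0. At P2.5 Hspa4 was at -0.0010 as deposited, and Hspb2 was at 0.0059 after rescaling to the same sum. Centred on the cardiomyocyte markers described below, Hspb2 turned to -0.096 at P2.5. The share of all counted genes with the same sign at both stages was not counted. Of the 20 changes, 5 at P2.5 and 4 at E15.5 exceeded 1 implied standard error, and none exceeded 1.96.

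Set side by side, both P2.5 libraries were above both E15.5 libraries for Hspb1, Hspb6, Hspb7, Cryab and Bag3. The stages overlapped for Hspb2, Hspb3, Hspb8, Hspd1 and Hspa4. Hspb6 had the widest gap. Bag3 in P2.5 was at 1.57 (dHET) and 1.39 (dKO) times its E15.5 level and Hspb7 at 1.36 and 1.33 times. In dHET the P2.5 level was only 1.056 times the E15.5 level for Cryab and 1.088 times for Hspb1. In dKO these ratios were 1.419 and 1.345. All these ratios carry the separate scaling of the tables. The share of all counted genes with both P2.5 libraries above both E15.5 libraries was not counted. The order is therefore no result about these genes.

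The chaperone network around these genes was described from lists of 104 further genes, of which 103 were found and 90 counted at P2.5 and 89 at E15.5. At P2.5 1 of the 90 passed 1.5-fold, where 4.73% of all counted genes did. At E15.5 0 of the 89 passed, where 1.06% of all did, and these differences were not tested. The 1 gene was Hsp90b1, the HSP90 of the endoplasmic reticulum (118 FPKM against 183 in dKO at P2.5). Its P2.5 change was 0.63 with an implied standard error of 0.32, and at E15.5 it had 235 and 256 FPKM. It no longer passed after either rescaling, while the Z-disc gene Nrap then passed on the lower side in the libraries rescaled to 1 sum. At P2.5, 70 of 90 genes (77.8%) lay above 0, where 63.2% of all counted genes did. At E15.5 27 of 89 (30.3%) lay above 0, where 46.3% of all did. After rescaling to the same sum the shares were 46.7% against 37.8% at P2.5 and 30.3% against 44.5% at E15.5.

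The HSP70 and HSP110 list had medians of 0.21 over 12 genes at P2.5 and -0.10 over 11 at E15.5. Hyou1, an HSP110 of the endoplasmic reticulum, had changes of 0.50 and -0.0068. The heat-inducible Hspa1a and Hspa1b, looked up after the values were seen, had between 0.258 and 0.692 FPKM in the 4 libraries. Copies elsewhere in the genome were not searched for these genes. The HSP90 list had medians of 0.22 and -0.051 over 16 genes. Its lowest E15.5 value was that of Stip1, which bridges HSP70 and HSP90 (62.3 FPKM in dHET, 49.0 in dKO).

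Unc45b and Smyd1, the muscle myosin chaperone and a methyltransferase of sarcomere assembly, were chosen after their values were seen. Unc45b had 67.8 and 87.4 FPKM at P2.5, with 63.9 and 71.9 at E15.5. Smyd1 had 142 and 178 FPKM at P2.5, with 104 and 118 at E15.5. In both genes the dKO library was the higher at both stages, by 0.36 and 0.17 for Unc45b (implied standard errors 0.29 and 0.16) and by 0.32 and 0.18 for Smyd1 (0.39 and 0.19).

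The chaperonin list, which holds the cytosolic TRiC subunits and prefoldins, had 13 of 14 genes above 0 at P2.5 (median 0.16) and 12 of 14 below 0 at E15.5 (median -0.11), where 63.2% and 46.3% of all counted genes lay above 0. Rescaled to the same sum, 7 of 14 lay above 0 at P2.5 (median -0.013, all genes -0.082) and 12 of 14 below 0 at E15.5. The P2.5 medians of the autophagy, DNAJ, mitochondrial and filament lists likewise turned below 0 with that rescaling. The TRiC subunit Cct6a had 43.9 and 47.8 FPKM at P2.5, with 72.1 and 62.9 at E15.5. Mitochondrial chaperones and proteases had medians of 0.16 and -0.042 over 12 genes. The matrix protease Lonp1 had 39.0 and 57.7 FPKM at P2.5, a change of 0.55, and a change of 0.016 at E15.5. DNAJ proteins, the co-chaperones that feed HSP70, had medians of 0.11 and -0.033 over 17 genes, with Dnajb11 at 0.42 and Dnajc7 at 0.042 at P2.5, and at 0.026 and -0.26 at E15.5.

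Heat shock factors bind elements of the kind printed above, but a link between their levels and that element was not tested. Hsf1 and Hsf2 had slightly lower values in dKO at both stages. Changes were -0.078 and -0.070 for Hsf1 (implied standard errors 0.30 and 0.19) and -0.27 and -0.20 for Hsf2 (0.31 and 0.19). Hsbp1, the other counted gene on the list of heat shock factors, was at 0.042 and -0.038. Hsf1 had 14.3 and 13.5 FPKM at P2.5, with 14.8 and 14.1 at E15.5. Hsf2 had 9.39 and 7.62 FPKM at P2.5, with 11.5 and 9.86 at E15.5. Of 10 counted genes on a list of filament and Z-disc proteins, many of them clients of these chaperones, 0 passed 1.5-fold at either stage. Of all counted genes 4.73% passed at P2.5 and 1.06% at E15.5, so this count is near the background. Nrap, a protein of growing myofibrils, came nearest at both stages, with 56.4 and 40.1 FPKM at P2.5 (dHET, dKO). Its E15.5 levels were 29.6 and 20.3 FPKM. Its changes were -0.48 and -0.52, with implied standard errors of 0.29 and 0.16.

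**Figure D4:**
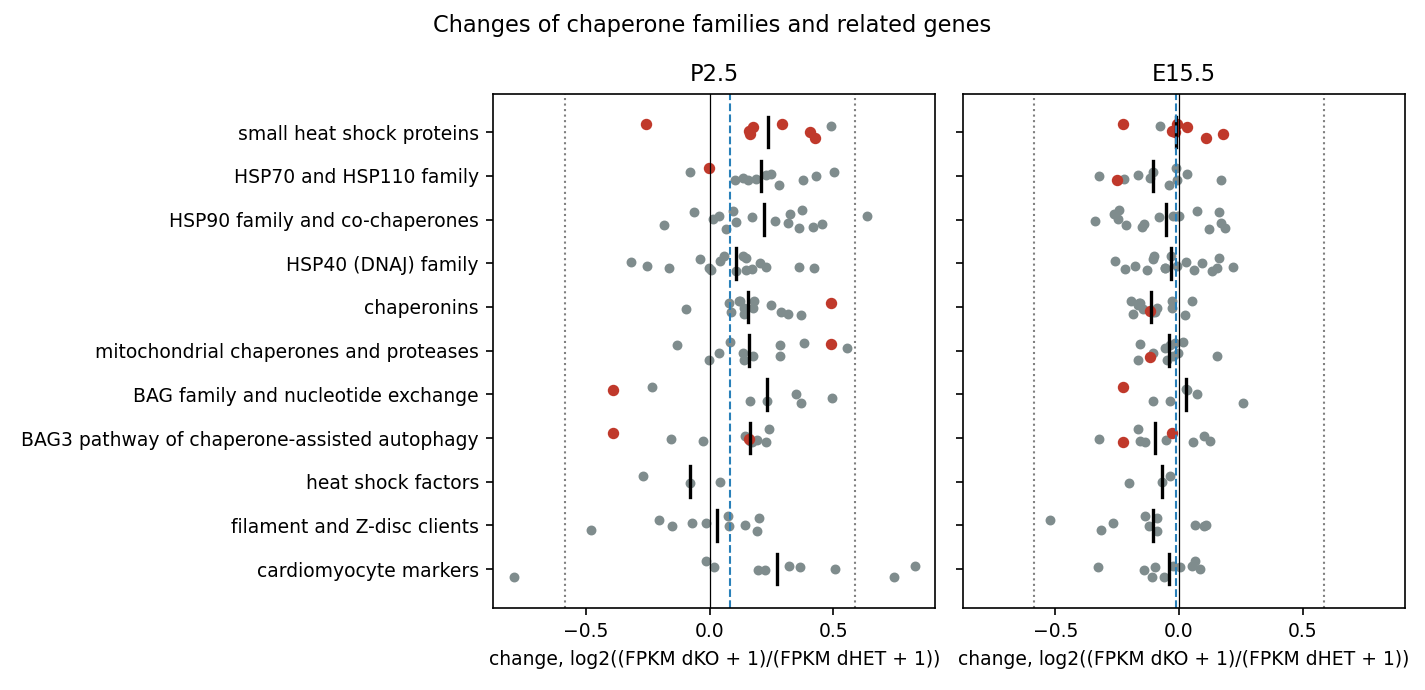
Changes of the counted genes of each list at P2.5 (left) and E15.5 (right); each point is 1 gene, red for the 10 genes described, black bars are list medians, the dashed blue line the median of all counted genes and dotted lines 1.5-fold. As deposited, chaperonin and HSP70 genes lie mostly right of 0 at P2.5 and left of it at E15.5; rescaled to the same sum, 7 of 14 chaperonin genes and 8 of 12 HSP70 genes lie above 0 at P2.5.

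Markers of the cell types a heart holds were summed in each library. The 10 cardiomyocyte markers were counted in each library and summed to 18887 FPKM in P2.5 dHET and 25582 in P2.5 dKO, and to 11579 and 11085 at E15.5. Their median changes were 0.27 and -0.042. At P2.5 2 of 10 were at least 1.5-fold higher and 1 lower, where 3.59% and 1.15% of all counted genes were. Tnnt2 and Tnnc1 were the 2 on the higher side (0.74 and 0.83) and Pln the 1 on the lower (-0.79). Centred on these markers, the median change of the 10 chaperone genes at P2.5 was -0.10, and Bag3 was then at -0.66, past 1.5-fold on the lower side. With that centring 555 of all 8197 counted genes were past 1.5-fold on that side. Smooth muscle cells also make Hspb1, Hspb6 and Cryab, and their 6 markers summed to 747 and 1819 FPKM at P2.5 and to 866 and 1392 at E15.5. These sums were mostly Acta2 (658 and 1692 FPKM at P2.5, 692 and 1215 at E15.5), and the other markers did not all share its direction. Cnn1 was also higher in dKO (changes of 1.69 and 0.41), Tagln and Smtn were near 0 at P2.5 and at -0.29 and -0.30 at E15.5, and Myh11 was at 0.48 and -2.05. Of the 5 counted, 3 were above 0 at P2.5 and 2 at E15.5. Fibroblast markers summed over 7 genes to 989 and 947 FPKM at P2.5 and to 828 and 760 at E15.5. At P2.5 they went both ways, with 2 above 0, Col1a1 (0.48) and Col1a2 (0.36), and 5 below. Among those below, Dcn (-0.61) and Lum (-0.72) were at least 1.5-fold lower. Skeletal muscle markers summed over 10 genes to 5.21 and 4.43 FPKM at P2.5 and to 15.5 and 8.88 at E15.5. The E15.5 difference was that of Tnni2 (11.6 and 5.02 FPKM), the only one of these markers counted at a stage. Myod1 was listed at 0 in both P2.5 libraries. Their part in the chaperone values was not tested.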

How the data were processed

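Poly-A RNA was sequenced from whole hearts with reads of 100 bases, from 1 end at P2.5 and from both ends at E15.5, per the labels. The authors deposited FPKM values in 1 table per stage, and the submitters' processing notes name TopHat, Bowtie, Cufflinks and the build mm9. Versions and settings were not given in the sources used here. The deposited test statistic is a score per gene, used only for the implied standard error, and p- and q-values were deposited beside it.

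Rows displaced by commas in gene names (86 a table) were realigned, and 175 rows at P2.5 and 178 at E15.5 with a status other than OK or NOTEST were left out. Changes used a pseudocount of 1. With 1 library per group no test was run. All 10 genes are named; of each pathway list, genes past 1.5-fold or up to 2 with the largest change. Members and lists were chosen with earlier results of these data known. No ranking by likeness was made, since 4 libraries give 2 changes.

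Deposited starts were raised by 1 to count from 1. Scaling totals came from genes of 1 exon, where FPKM times length and total gave a whole number (within 0.1) for at least 97.2% of low values; this step and the counting rule were tested on simulated data. Copies were searched with BLAST 2.17.0 for the 10 genes and Hspe1 only, and calculations ran in Python 3.11.15 with pandas 2.3.3. The 12 alternatives set at the start varied pseudocount, filter, scaling, status, source of the change and fold; 1 was added after seeing the data. Intervals cover the authors' model error for 2 libraries.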

Additional observations from a re-analysis of the deposited data

Results flagged for a closer look

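For 4 of the 10 genes the dKO library was the higher at P2.5 and the lower at E15.5 as deposited. Of all counted genes 63.2% lay above 0 at P2.5 and 46.3% at E15.5, and the share with this pair of signs was not counted. The change at P2.5 minus that at E15.5 was 0.61 for Hspd1, 0.42 for Cryab, 0.30 for Hspb1 and 0.19 for Hspb8. Rescaled to the same sum, Hspb8 was lower in dKO at both stages. Centred on the median, Hspb1 was higher at both. With 1 pair of libraries per stage the difference between stages was not tested. The E15.5 changes of Hspb1 (-0.0090), Cryab (-0.018), Hspb8 (-0.030) and Hspd1 (-0.12) all lay within 1 implied standard error of 0. For Hspd1 and Hspb1, copies elsewhere in the genome make the values uncertain.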

How the results depend on the processing

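The changes of the 10 genes moved by less than 1.96 implied standard errors under each alternative run, 160 values in all. That margin is wide: none of the 20 changes was itself that large, so a change could be lost within it. It is therefore no check that the changes hold. The count of members past 1.5-fold was 0 at both stages except with a threshold of 5 to 4 at P2.5 (3 higher, Hspd1, Hspb3 and Cryab, and 1 lower, Bag3) and after centring on the cardiomyocyte markers (1 lower, Bag3), an alternative chosen after seeing the data. Of all 8197 counted genes at P2.5, 1470 were higher and 518 lower with the 5 to 4 threshold. After centring on the markers 555 of them were lower. The members' median at P2.5 was 0.00080 after rescaling to a sum of 1000000 and -0.10 after that centring. Signs turned in 2 of 20 changes with the rescaling (Hspb6 and Hspb8 at P2.5), in 1 with centring on the median (Hspb1 at E15.5) and in 6 with centring on the markers.

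Counts over all genes moved more. At P2.5, where 294 were higher and 94 lower, a pseudocount of 5 gave 140 and 38, rescaling 153 and 321, centring on the median 180 and 161, centring on the markers 80 and 555, a ratio of 5 to 4 gave 1470 and 518 and a fold of 2 gave 43 and 21. The lower count was 156 with a filter at FPKM 1, 59 at FPKM 10 and 159 without a filter. At E15.5, where 41 were higher and 47 lower, a pseudocount of 5 gave 18 and 21, a filter at FPKM 10 gave 26 and 24, a ratio of 5 to 4 gave 249 and 161 and a fold of 2 gave 8 and 15. The lower count there was 85 with a filter at FPKM 1 and 93 without. Other filters and folds count other genes by construction; beyond that the cause was not tested. No paired analysis was possible because each group has 1 library, and none could be left out.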

Other observations

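Some small heat shock proteins and a heat shock factor known from other tissues were low in these hearts. The lens crystallin Cryaa was listed at 0 in all 4 libraries. Hspb9, a small heat shock protein of the testis, had 0.247 FPKM (dHET) and 0.0828 FPKM (dKO) at P2.5, with 0.287 and 0.0795 at E15.5. Hspb11, which despite its name is a subunit of the ciliary transport complex, was more abundant and had 7.14 and 10.4 FPKM at P2.5, with 6.60 and 6.20 at E15.5. Hsf4, the heat shock factor of the lens, had 0.256 FPKM (dHET) and 1.19 FPKM (dKO) at P2.5 and a change of 0.048 at E15.5. It did not pass the low-value filter at either stage.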
